A study of Mus musculus with 13 samples.

Results

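Drd2, Adora2a, Ppp1r1b, Rgs9, Pde10a, Gpr6, Six3 and Rasd2, 8 genes that mark the medium spiny projection neurons of the striatum, were followed in RNA from mouse cortex. They were taken by symbol, and all 8 were present in each of 3 tables of genotype comparisons, which hold 13482 to 17562 genes, with 13482 in common. The groups were 4 Grn-/-;GRNtg mice, in which mouse Grn is deleted and a human GRN transgene is present, 4 Grn+/- mice, which keep 1 copy of mouse Grn, and 5 wild-type (Grn+/+) mice, all male and 18 months old. The labels give the tissue as cortex with no area or hemisphere, and neither the promoter nor the copy number of the transgene is known from them. The tables hold no value per mouse, so each gene is given by its mean normalized count over the libraries and by the log2 fold change of each comparison, with its standard error (SE).

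The striatum lies beneath the cortex, across the white matter of the corpus callosum. Most of its neurons are GABAergic medium spiny neurons, which fall into a direct pathway class that expresses the dopamine D1 receptor and an indirect pathway class that expresses the dopamine D2 receptor. D1 receptors raise cyclic AMP and D2 receptors lower it, and the adenosine receptor encoded by Adora2a opposes D2 in the indirect class. The cAMP signal is read by protein kinase A, which turns DARPP-32 into an inhibitor of protein phosphatase 1, and is ended by phosphodiesterases. The markers are enriched in striatum and are not exclusive to it. Ppp1r1b, for example, is also expressed by deep-layer cortical neurons.

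Mouse Grn, the targeted gene, was at 24.7% of wild type in Grn-/-;GRNtg cortex and at 63.6% of wild type in Grn+/- cortex in the authors' deposited tables, with log2 fold changes of -2.02 ± 0.081 (adjusted p = 5.8e-131) and -0.65 ± 0.077 (adjusted p = 2.9e-13). No source used here says whether the authors shrank fold changes towards 0, so every fold change, percentage of a group's level and interval given here may be nearer to 0 than an unshrunken one. Mean normalized counts of genes summed to 18113972, and the 8 markers made up 0.0414% of that sum. The depth of each library is not known from these tables. The label of cortex was checked against markers of cortical excitatory neurons, given per kilobase of exon (GENCODE M21) so that genes can be compared. The vesicular glutamate transporter gene Slc17a7 had 6694 mean normalized counts per kilobase and the kinase gene Camk2a had 10711, both above 99% of the 16850 genes with a length.

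The markers spanned a wide range of levels in this cortical RNA. Ppp1r1b, which encodes DARPP-32, had 893 mean normalized counts per kilobase in the authors' deposited tables, above the median of 63.1 over all genes with a length. Rasd2, which encodes the small GTPase Rhes, had 636 per kilobase there. Pde10a, the dual-substrate phosphodiesterase of medium spiny neurons, had 144, and Rgs9, whose product speeds the shut-off of G proteins coupled to D2 receptors, had 111, on the same scale. Those 4 genes stood above the median gene, and the others stood below it. Adora2a, the adenosine receptor gene, had 52.8 per kilobase and Drd2, the dopamine D2 receptor gene, had 26.1. Gpr6, an orphan receptor gene of the indirect pathway, had 20.6, and Six3, a homeobox transcription factor gene needed for indirect pathway neurons to form, had 5.55. Drd1, the D1 receptor gene of the direct pathway, had 50.2 per kilobase, close to Adora2a. Chat, which marks the cholinergic interneurons of the striatum, had 2.94 per kilobase, below each of the 8 markers.

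**Figure D1:**
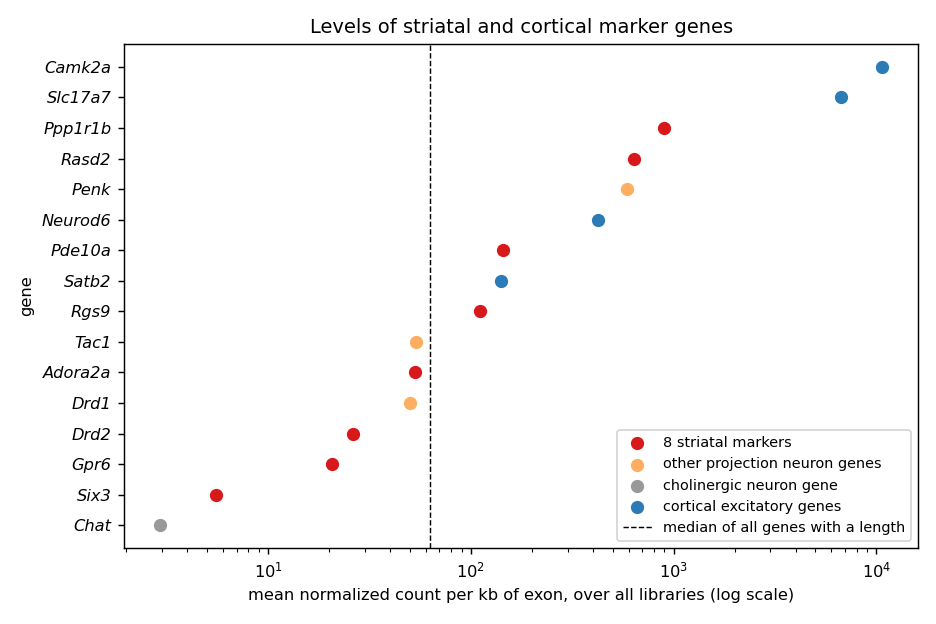
Mean normalized count per kilobase of exon over all libraries (log axis) for the 8 striatal markers (red), other projection neuron genes (orange), Chat (grey) and cortical excitatory genes (blue); the dashed line is the median of all genes with a length, 63.1. Camk2a and Slc17a7 stand highest, Ppp1r1b and Rasd2 next, and Adora2a, Drd2, Gpr6 and Six3 below the median gene.

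None of the 8 markers passed an adjusted p of 0.05 in any of the 3 comparisons, and none is among the genes in the authors' 3 deposited tables of significant genes. In the comparison of Grn-/-;GRNtg with Grn+/- cortex 82 genes were called, or 0.467% of those tested, in Grn-/-;GRNtg against wild type 4.87%, and in Grn+/- against wild type 6.8%. In 6 of the 8 (Drd2, Adora2a, Gpr6, Rgs9, Pde10a and Six3) the level was highest in Grn-/-;GRNtg, intermediate in wild type and lowest in Grn+/-. Ppp1r1b was highest in Grn-/-;GRNtg and lowest in wild type, and Rasd2 was highest in Grn+/- and lowest in Grn-/-;GRNtg. No pair of neighbours in these orders differed past the threshold.

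The comparison of Grn-/-;GRNtg with Grn+/- sets the genotypes with reduced mouse Grn against each other. Of the 8 markers, 7 had a log2 fold change above 0, where 50.8% of all genes did, and 3 had an unadjusted p under 0.05 in the higher direction, where 5.14% of all genes did (8.99% in either direction). The median log2 fold change of the 8 was 0.16, beside 0.00 over all genes. The 8 genes mark medium spiny neurons and were measured in the same mice, so they are not 8 separate observations. In bulk tissue, a different number of striatal cells, a different amount of RNA per cell and expression by cortical neurons cannot be told apart.

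Gpr6 stood farthest from 0. Its log2 fold change was 0.32 ± 0.113 in the authors' deposited table, which is 125% of the Grn+/- level, with p = 0.0049 and adjusted p = 0.24. The 95% interval, computed from that SE, ran from 0.10 to 0.54. Its Wald statistic, the log2 fold change divided by its SE, was 2.81, above that of 98.7% of genes. The smallest Wald statistic of a called gene in that table was 3.68 in size.

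Adora2a and Drd2, the receptor pair of the same indirect pathway neurons, lay on the same side of 0. Adora2a was at 0.20 ± 0.089 (p = 0.023, adjusted p = 0.44), or 115% of the Grn+/- level, in the authors' deposited table. Drd2 was at 0.14 ± 0.076 (adjusted p = 0.58), or 111%, per the authors' deposited table. The 95% interval of Adora2a, 0.03 to 0.38, lay above 0, and that of Drd2, -0.00 to 0.29, reached it.

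Rgs9, Pde10a, Ppp1r1b and Rasd2 are expressed in both classes of medium spiny neuron. Their intervals were wider, at mean normalized counts of 709 to 2614. A narrow interval at a lower count cannot be read as a more precise value. Rgs9 was at 0.27 ± 0.128 (p = 0.037, adjusted p = 0.51), or 120% of the Grn+/- level, in the authors' deposited table. Pde10a was at 0.17 ± 0.132 (adjusted p = 0.79) and Ppp1r1b at 0.13 ± 0.136 (adjusted p = 0.86) there, or 112% and 110% of Grn+/-. Six3, the transcription factor gene, was at 0.07 ± 0.058 (adjusted p = 0.81) with the narrowest interval of the 8. Rasd2 alone was below 0, at -0.05 ± 0.122 (adjusted p = 0.96), or 96.3% of Grn+/- per the authors' deposited table. Its 95% interval of -0.29 to 0.19 overlaps those of all the others. At the threshold of that table, Ppp1r1b would have needed a log2 fold change of 0.50 at its SE to be called, and Rgs9 one of 0.47.

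**Figure D2:**
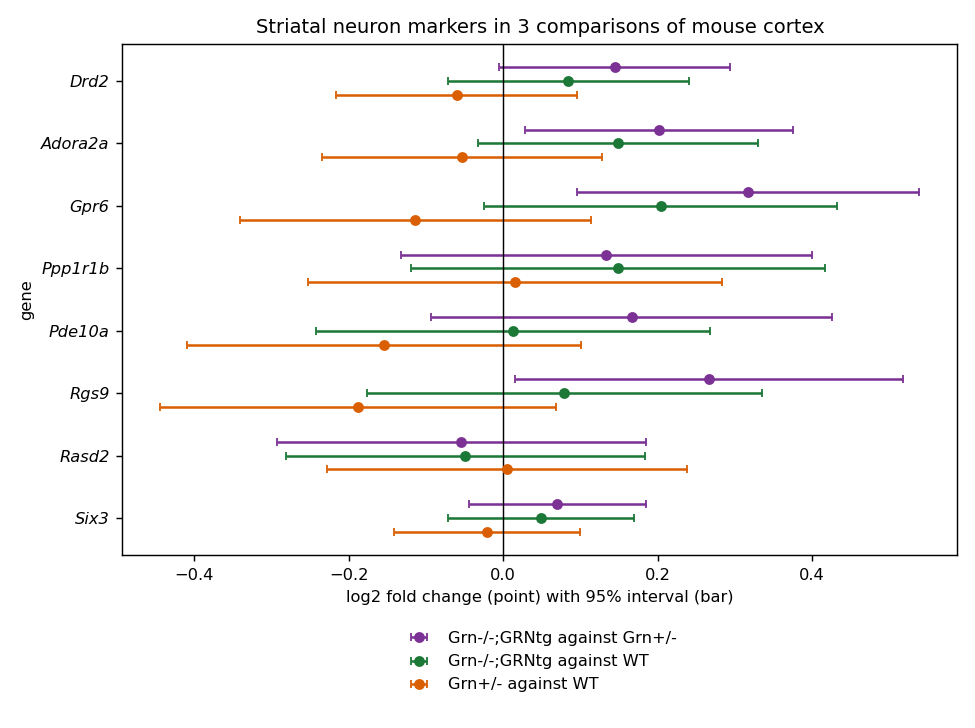
Log2 fold change (points) with 95% intervals (bars, normal intervals from the SE) of the 8 markers in Grn-/-;GRNtg against Grn+/- (purple), Grn-/-;GRNtg against wild type (green) and Grn+/- against wild type (orange). Most purple and green points lie right of 0 and most orange points left of it, and only the purple intervals of Gpr6, Adora2a and Rgs9 exclude 0.

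Sequences before the start sites of these genes are shown for Gpr6 and Rgs9, which had the largest fold changes between the mutant groups, and for Rasd2, which had the only negative one; they were chosen after their values were seen. Each window runs from 250 bases before the RefSeq start to 50 bases after it (GRCm38.p6), and 6 of the 8 genes matched, with 7 windows. Capitals mark a cyclic AMP response element (TGACGTCA), a CCAAT box (CCAAT), a GC box (GGGCGG) or a TATA-like stretch (TATAAA) on either strand. Gpr6 is chr10:41072241-41072540, minus strand. Rgs9 is chr11:109298132-109298431, minus strand. Rasd2 is chr8:75213694-75213993, plus strand.
Gpr6: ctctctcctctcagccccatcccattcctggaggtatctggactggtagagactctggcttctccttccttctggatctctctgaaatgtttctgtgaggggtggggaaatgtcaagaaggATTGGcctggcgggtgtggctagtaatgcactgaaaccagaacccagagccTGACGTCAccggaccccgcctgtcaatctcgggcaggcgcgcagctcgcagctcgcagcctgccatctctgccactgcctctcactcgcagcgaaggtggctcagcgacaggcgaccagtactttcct
Rgs9: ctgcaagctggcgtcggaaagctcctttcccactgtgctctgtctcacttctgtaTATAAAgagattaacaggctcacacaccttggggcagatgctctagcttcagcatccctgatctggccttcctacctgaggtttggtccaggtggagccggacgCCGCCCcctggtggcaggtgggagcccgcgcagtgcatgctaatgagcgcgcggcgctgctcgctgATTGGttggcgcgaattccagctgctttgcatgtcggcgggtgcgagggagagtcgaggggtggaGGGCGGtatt
Rasd2: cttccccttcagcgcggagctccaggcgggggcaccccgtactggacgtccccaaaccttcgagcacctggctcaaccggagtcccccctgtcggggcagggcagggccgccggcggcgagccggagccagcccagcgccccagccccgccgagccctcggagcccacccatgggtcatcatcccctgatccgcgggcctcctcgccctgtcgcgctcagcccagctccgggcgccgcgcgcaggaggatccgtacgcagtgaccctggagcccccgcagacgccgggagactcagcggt
The window of Gpr6 holds the full element TGACGTCA, which reads the same on both strands, beginning at position -78 from the start. It was the only one of the 7 windows with it, and 1.79% of all 32851 windows hold it. The CCAAT box was in 4 of the 7 windows and the GC box in 4, against 37.4% and 35.7% of all windows. The window of Rgs9 holds a TATAAA at position -195, which 13.6% of all windows hold. That of Rasd2 holds none of these 4 motifs and is 74.7% G and C, where the median window has 52.7%. A match is a description of the letters and not a site.

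Against wild type, the Grn-/-;GRNtg cortex differs by the deletion of mouse Grn and by the human transgene together. The same Grn-/-;GRNtg mice stand in the comparison of the mutant groups, so the values here are not a repeat of that comparison. Above 0 were 7 of the 8 markers, beside 51.3% of all genes, with a median log2 fold change of 0.08, beside 0.01 over all genes. At an unadjusted p under 0.05 the count was 0, where 20.5% of all genes in either direction passed. Gpr6 was at 0.20 ± 0.117 (p = 0.080, adjusted p = 0.31), or 115% of wild type, per the authors' deposited table. Adora2a and Ppp1r1b were both at 0.15 there, with SEs of 0.092 and 0.137 and adjusted p of 0.36 and 0.57, or 111% of wild type each. Drd2 (0.08 ± 0.080, adjusted p = 0.58), Rgs9 (0.08 ± 0.131, adjusted p = 0.78) and Six3 (0.05 ± 0.061, adjusted p = 0.69) lay closer to 0 in the authors' deposited table. Pde10a was at 0.01 ± 0.130 (adjusted p = 0.97) and Rasd2 at -0.05 ± 0.119 (adjusted p = 0.86). Every 95% interval in this comparison included 0.

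In Grn+/- against wild type, the comparison that isolates the loss of 1 mouse Grn copy, 6 of the 8 markers were below 0, beside 47.6% of all genes, and the median log2 fold change was -0.06, beside 0.01 over all genes. None reached an unadjusted p under 0.05 by the authors' Wald test, where 20.2% of all genes did. Rgs9 was lowest, at -0.19 ± 0.131 (p = 0.15, adjusted p = 0.44), or 87.8% of wild type, per the authors' deposited table. Pde10a was at -0.15 ± 0.130 (adjusted p = 0.55), or 89.9%, and Gpr6 at -0.11 ± 0.116 (adjusted p = 0.64), or 92.4%, there. Drd2 (-0.06 ± 0.080), Adora2a (-0.05 ± 0.092) and Six3 (-0.02 ± 0.061) were nearer to wild type in the authors' deposited table, with adjusted p between 0.73 and 0.90. Ppp1r1b (0.02 ± 0.137) and Rasd2 (0.01 ± 0.119) had Wald statistics of 0.11 and 0.04 in that table. The comparisons with wild type use the same 5 wild-type mice, so their values are given side by side and not as separate lines of evidence.

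The SEs of the markers stood apart from those of other genes with as many reads. In the comparison of Grn-/-;GRNtg with Grn+/-, each gene was set beside all genes with a mean normalized count within 1.5-fold of its own, a measure chosen after the values were seen. Ppp1r1b, Pde10a, Rasd2 and Rgs9 had larger SEs than 98.9%, 98.3%, 95.3% and 95.1% of such genes in the authors' deposited table. Ppp1r1b, for example, had an SE of 0.136, where 1574 genes of like count had a median of 0.0723. Six3, Drd2, Adora2a and Gpr6 had SEs smaller than nearly all: 0%, 0.150%, 0.399% and 4.15% of such genes were below them. For Six3, with 30.2 mean normalized counts, the SE was 0.0584, and 1045 genes of like count had a median of 0.136. Thus 4 of the 8 lay above the 95th percentile, beside 3.75% of all genes, and 4 below the 5th percentile, beside 3.34% of all genes. The 4 above were the markers with the most reads, at mean normalized counts of 709 to 2614. The 4 below were those with the fewest, at 30.2 to 162. Counts of 4 above and 4 below were also found in Grn-/-;GRNtg against wild type (beside 4.48% and 3.26% of all genes) and in Grn+/- against wild type (beside 4.89% and 3.11%). The 3 tables come from 1 fit and share each gene's spread and mean count, so these counts are not a repeat of the first.

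The deposited SE did not fall steadily with read count. Its median over all genes in that table was 0.0661 at mean normalized counts under 10, 0.132 between 10 and 50, and 0.0736 between 1000 and 5000. A small SE is therefore found at both few and many reads, and the largest was 0.138 in each table. Because fold changes may have been shrunk, a small SE cannot be read as a precise value, and the Wald statistic is given beside it. It ran from -0.44 for Rasd2 and 0.98 for Ppp1r1b to 2.81 for Gpr6 in the comparison of the mutant groups, with a median of 1.58 beside 0.02 over all genes.

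**Figure D3:**
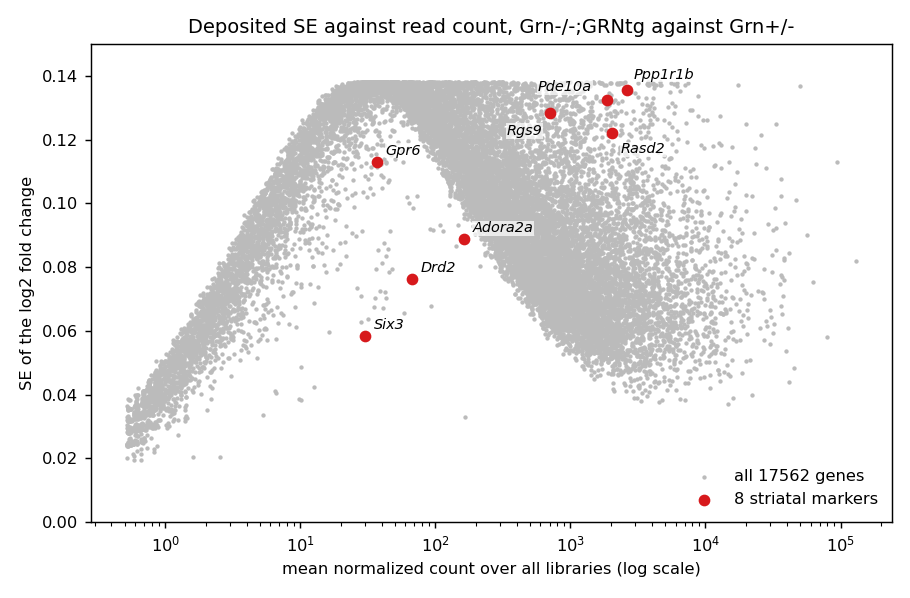
Deposited SE of the log2 fold change against mean normalized count (log axis) for all 17562 genes (grey) and the 8 markers (red) in Grn-/-;GRNtg against Grn+/-. Six3, Drd2 and Adora2a lie under the grey cloud at counts of 30.2 to 162, and Ppp1r1b, Pde10a, Rasd2 and Rgs9 near its top at counts of 709 to 2614.

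Further genes of medium spiny neurons were counted from a list of 33. In Grn-/-;GRNtg against Grn+/-, 21 of 33 measured were above 0, with a median log2 fold change of 0.12, and 0 passed the adjusted p of 0.05; at an unadjusted p under 0.05, 5 were higher (5.14% of all genes) and 3 lower (3.85%). Bcl11b, a transcription factor of medium spiny and of deep-layer cortical neurons, was at 0.37 ± 0.132 (adjusted p = 0.24) per the authors' deposited table. Strip2 (-0.33 ± 0.121, adjusted p = 0.26) and Syndig1l (0.25 ± 0.097, adjusted p = 0.31) followed by p there. The direct pathway genes Drd1 and Tac1, the substance P precursor gene, were both at 0.25 with an SE of 0.136, and Penk, the enkephalin precursor gene of the indirect pathway, was at 0.19 ± 0.103 (adjusted p of 0.59, 0.60 and 0.60) in the authors' deposited table. Pdyn, the dynorphin precursor gene of the direct pathway, was at -0.12 ± 0.121 (adjusted p = 0.85) there. Drd1, Tac1, Penk and Pdyn were named here after their values were seen, and 12 of the 33 genes were below 0.

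Against wild type, 23 of 32 listed genes were above 0 in Grn-/-;GRNtg with a median of 0.10 and 0 called, and 7 were higher at an unadjusted p under 0.05, where 10.1% of all genes were. The smallest p was that of Gpr52, an orphan receptor gene of indirect pathway neurons, at 0.38 ± 0.125 (adjusted p = 0.051) per the authors' deposited table. Tmem158 (0.32 ± 0.120, adjusted p = 0.090) and Slc35d3 (0.27 ± 0.120, adjusted p = 0.17) came next there. In Grn+/- against wild type, 20 of 31 were above 0 with a median of 0.02, and 0 were called, also at an unadjusted p under 0.05, beside 6.8% and 20.2% of all genes. Coch (0.21 ± 0.113), Foxp2 (-0.20 ± 0.129) and Pdyn (0.16 ± 0.118) had the smallest p in the authors' deposited table, with adjusted p of 0.28, 0.39 and 0.45.

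Of 21 genes of the dopamine and cAMP pathway around the markers, 1 was called in Grn-/-;GRNtg against wild type, where 4.87% of all genes were, 1 in Grn+/- against wild type, where 6.8% were, and 0 between the mutant groups, where 0.467% were. The counts against wild type are near those of all genes. Rgs7, an R7-family relative of Rgs9 that also pairs with the G protein subunit Gnb5, rose in Grn-/-;GRNtg against wild type (0.22 ± 0.064, adjusted p = 0.025) and in Grn+/- against wild type (0.26 ± 0.064, adjusted p = 0.0027) in the authors' deposited tables. Neither call was kept when the statistics were divided by their robust spread over the table (adjusted p = 0.99 and 0.37). Between the mutant groups Rgs7 was at -0.05 ± 0.067 (adjusted p = 0.92). Its obligate partner Gnb5 was at 0.07 and 0.08 in the same comparisons with wild type, with adjusted p of 0.55 and 0.52, and Rgs7bp, the membrane anchor of R7 proteins, was at -0.16 and -0.14, with adjusted p of 0.36 and 0.45, in the authors' deposited tables. The catalytic subunit genes of protein kinase A, Prkacb (0.15 ± 0.064, adjusted p = 0.16) and Prkaca (0.16 ± 0.074, adjusted p = 0.18), had the next smallest p in Grn-/-;GRNtg against wild type in the authors' deposited table. In Grn+/- against wild type these were Prkar1b (0.21 ± 0.094, adjusted p = 0.18), a regulatory subunit gene, and Ppp1ca (0.08 ± 0.059, adjusted p = 0.45), a catalytic subunit gene of the phosphatase that DARPP-32 inhibits. Between the mutant groups Arpp19, a cAMP-regulated phosphoprotein gene, was at -0.32 ± 0.092 (adjusted p = 0.078), Rasgrp2 at 0.29 ± 0.130 (adjusted p = 0.46) and Gng7, the G protein gamma subunit gene of striatal neurons, at 0.26 ± 0.137 (adjusted p = 0.59) per the authors' deposited table. The pathway list was split evenly there, with 11 of 21 above 0 and a median of 0.01.

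Markers of other tissues and cell types that a cortical sample can hold were read beside the striatal markers. In Grn-/-;GRNtg against Grn+/-, where the striatal median was 0.16, claustrum markers were above 0 in 4 of 4 (0.12 to 0.25, median 0.18) and cholinergic interneuron markers in 5 of 6 (-0.03 to 0.12, median 0.10). Cortical excitatory markers were below 0 in 9 of 12 (-0.37 to 0.17, median -0.06) and cortical interneuron markers in 5 of 8 (-0.21 to 0.21, median -0.12). Myelin genes, of the white matter between cortex and striatum, were below 0 in 10 of 10 (-0.11 to -0.01, median -0.08), and ependymal genes of the ventricle wall in 5 of 5 (-0.24 to -0.10, median -0.14). Thalamic markers were above 0 in 4 of 7 (-0.18 to 0.37, median 0.09), and the 3 choroid plexus markers measured, of 10 listed, were below 0 (-0.08 to -0.02, median -0.07). Hippocampal markers were above 0 in 3 of 6 (-0.26 to 0.50, median 0.04) and held the only called gene of these 9 lists in that comparison, C1ql2, a synaptic organizer of dentate granule cells, at 0.50 ± 0.124 (adjusted p = 0.019) per the authors' deposited table, where 0.467% of all genes were called. With statistics divided by their robust spread its adjusted p was 0.087. In the other lists the smallest p values were those of Lxn (0.25 ± 0.111), Lhx8 (0.08 ± 0.047), Camk2a (-0.18 ± 0.058), Sst (0.19 ± 0.101), Ermn (-0.11 ± 0.133), Dynlrb2 (-0.24 ± 0.111), Ntng1 (0.37 ± 0.129) and Aqp1 (-0.08 ± 0.091), with adjusted p from 0.18 to 0.89 in the authors' deposited table. The cholinergic markers lay between 0.867 and 4.69 mean normalized counts per kilobase, below each of the 8 striatal markers. Summed levels per group cannot be given from these tables, and the part of a different cut of the tissue in the values of the striatal markers was not tested.

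In Grn-/-;GRNtg against wild type, where the striatal median was 0.08, claustrum markers were above 0 in 4 of 4 (0.09 to 0.29, median 0.27) and cholinergic markers in 3 of 4 (-0.00 to 0.16, median 0.02). Myelin genes were below 0 in 10 of 10 (-0.29 to -0.11, median -0.21), ependymal genes in 5 of 5 (-0.15 to -0.00, median -0.03) and choroid plexus markers in 3 of 3 (-0.12 to -0.09, median -0.11). Cortical excitatory markers (5 of 12 above 0, median -0.01), cortical interneuron markers (5 of 8, median 0.05), hippocampal markers (3 of 6, median -0.00) and thalamic markers (2 of 6, median -0.04) lay on both sides, between -0.30 and 0.38. Camk2a was the only called gene of these lists, at -0.20 ± 0.055 (adjusted p = 0.018) per the authors' deposited table, where 4.87% of all genes were called. Its adjusted p was 0.99 with statistics divided by their robust spread. The smallest p values of the other lists were those of Lxn (0.29 ± 0.108), Slc18a3 (0.16 ± 0.098), Htr3a (0.30 ± 0.121), Ermn (-0.29 ± 0.135), Dynlrb2 (-0.14 ± 0.115), Ntng1 (0.38 ± 0.132), Prox1 (-0.30 ± 0.136) and Aqp1 (-0.12 ± 0.095), with adjusted p from 0.061 to 0.50 in the authors' deposited table.

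In Grn+/- against wild type, where the striatal median was -0.06, no cholinergic marker was tested. Claustrum markers were above 0 in 3 of 4 (-0.11 to 0.16, median 0.07), cortical interneuron markers in 8 of 8 (0.01 to 0.21, median 0.07) and ependymal genes in 3 of 3 (0.04 to 0.09, median 0.08). Below 0 were myelin genes in 10 of 10 (-0.21 to -0.04, median -0.14), hippocampal markers in 3 of 3 (-0.35 to -0.05, median -0.28) and choroid plexus markers in 3 of 3 (-0.07 to -0.04, median -0.04). Thalamic markers were split 3 and 3 (-0.20 to 0.14, median -0.00), as were cortical excitatory markers at 6 and 6 (-0.14 to 0.37, median 0.01). The cortical transcription factor genes Emx1 (0.36 ± 0.115, adjusted p = 0.036) and Rorb (0.37 ± 0.127, adjusted p = 0.048) rose in Grn+/- per the authors' deposited table, where 6.8% of all genes were called. Both calls were lost with statistics divided by their robust spread (adjusted p = 0.69 and 0.72). The smallest p values of the other lists were those of Gnb4 (0.16 ± 0.138), Sncg (0.21 ± 0.138), Mobp (-0.21 ± 0.136), Ccdc153 (0.09 ± 0.076), Lef1 (-0.20 ± 0.127), C1ql2 (-0.35 ± 0.127) and Prlr (-0.07 ± 0.077), with adjusted p from 0.067 to 0.69 in the authors' deposited table. Reads counted to no gene were lower in Grn-/-;GRNtg (-0.18 ± 0.052, adjusted p = 0.024) and in Grn+/- (-0.22 ± 0.052, adjusted p = 0.0019) than in wild type, and were at 0.04 ± 0.054 (adjusted p = 0.91) between the mutant groups, per the deposited tables of the authors. With the robust spread the adjusted p of the first pair was 0.99 and 0.34.

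**Figure D4:**
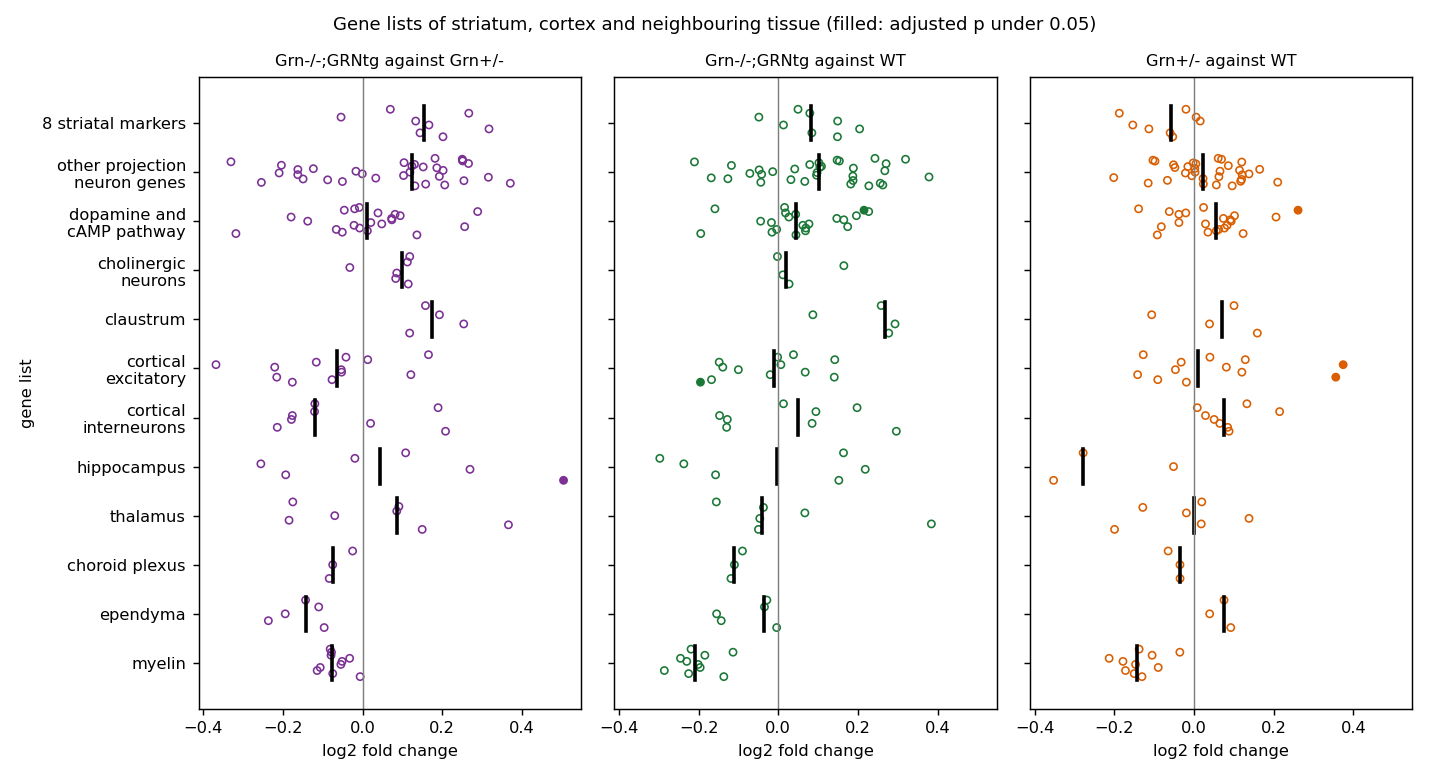
Log2 fold changes of the 8 striatal markers and of 11 further gene lists in the 3 comparisons (circles are genes, filled where the adjusted p is under 0.05, black bars are medians). Striatal, claustrum, other projection neuron, cholinergic, and dopamine and cAMP pathway lists have medians above 0 in both panels for Grn-/-;GRNtg. Myelin and choroid plexus genes lie below 0 in all 3 panels.

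The spread of SEs seen in the 8 markers was also read in those lists. In Grn-/-;GRNtg against Grn+/-, 9 of 10 myelin genes had an SE above the 95th percentile of genes of like count, and 3 of 3 choroid plexus, 3 of 5 ependymal and 3 of 6 cholinergic genes had one below the 5th. Of the 33 further projection neuron genes, 8 were above the 95th and 5 below the 5th percentile. Of the 21 dopamine and cAMP pathway genes these were 3 and 2, and of 12 cortical excitatory genes 2 and 1. Above the 95th percentile were also 2 of 8 cortical interneuron genes and 1 of 4 claustrum genes. Neither tail held any of 6 hippocampal or 7 thalamic genes, but 1 of 6 thalamic genes was above the 95th percentile in each comparison with wild type.

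Genes outside the lists whose pair of fold changes against wild type was nearest to the median pair of the 8 markers (0.08 in Grn-/-;GRNtg and -0.06 in Grn+/-) were Bola2, Hook2, Lman1, Zfr2 and Mast1. Their Euclidean distances were 0.0078 to 0.0111 in log2 units, over only 2 comparisons that share wild-type mice, and 338 of 11276 genes lay within 0.05.

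Overlapping genes limit the reading of some of the markers, since no source used here gives the strand setting of the counting. Six3 (chromosome 17, 85613608 to 85629302, plus strand, GRCm38) overlaps 7 genes and shares exonic bases with Gm28528, which was not analysed here, and Six3os1, both on the other strand. Six3os1 had a mean normalized count of 12.5 and log2 fold changes of 0.00 ± 0.042 against Grn+/- and 0.01 ± 0.045 against wild type in the authors' deposited tables for Grn-/-;GRNtg. Ppp1r1b (chromosome 11, 98348404 to 98357796, plus strand) shares exonic bases with 1700003D09Rik on the other strand, at a mean normalized count of 3.51 beside 2614 for Ppp1r1b. Pde10a (chromosome 17, 8525372 to 8986648, plus strand) overlaps genes only outside its exons. Drd2 (chromosome 9, 49340627 to 49408177, plus strand), Adora2a (chromosome 10, 75316877 to 75334784, plus strand), Rgs9 (chromosome 11, 109225355 to 109298129, minus strand), Gpr6 (chromosome 10, 41069977 to 41072285, minus strand) and Rasd2 (chromosome 8, 75213944 to 75224113, plus strand) overlap no other gene in GENCODE M21. Mouse Grn shares exonic bases with Fam171a2 on the other strand.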

How the data were processed

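RNA from the cortex of 13 mice was sequenced from directional libraries, per the labels' protocols. The files used here are the authors' comparison tables. Per the file headers, each gives a mean normalized count (a signal, the authors' mean of all libraries), a log2 fold change with its SE, a Wald statistic (a score), a p-value and an adjusted p-value. R 4.1.2, DESeq2 1.34.0 and build mm10 are named in the submitters' processing notes, with no role. No source used here gives the aligner, counter, annotation or strand setting. The deposited statistics equal log2 fold change over SE, adjusted p-values equal Benjamini-Hochberg over each table's rows, and fold changes of the 3 tables add up, so they come from 1 fit. Rows without a gene (no_feature, 17.0% of mean normalized counts, and ambiguous, 0.606%) were left out of counts of genes.

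Calls are the authors' adjusted p under 0.05. Intervals are 95% normal intervals computed here from the deposited SE. Labels do not say whether mice shared a litter or batch, and their part was not tested. Levels per kilobase use the union of exons in GENCODE M21, the GRCm38 assembly that mm10 names, for 95.9% of genes. Promoter windows are from RefSeq, GRCm38.p6. The 8 genes and the lists were chosen with earlier results of these data known. Named were the 8 markers, Grn, called genes and the 3 smallest p of each pathway list, and the smallest p of other lists; Drd1, Tac1, Penk, Pdyn between the mutant groups, Gnb5, Rgs7bp, Chat, Slc17a7 and the overlapping genes were added after values were seen. Alternatives changed the threshold, the genes adjusted over, a minimum mean normalized count of 100, the scaling of statistics, centring and weighting. Python 3.11.15, numpy 2.4.6, pandas 2.3.3, scipy 1.17.1, statsmodels 0.14.6 and matplotlib 3.10.9 were used.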

Additional observations from a re-analysis of the deposited data

How the results depend on the processing

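The count of called markers stayed at 0 of 8 in each comparison with an adjusted p under 0.1 or 0.01, adjustment over the 13482 genes in all 3 tables, a minimum mean normalized count of 100 (5 markers left), and statistics divided by their robust spread. The cut of 0.01 could not raise a count of 0. Nor could the robust spreads, which were 1.10 to 1.56 and so raised every p. In Grn+/- against wild type those 13482 genes are all the genes tested. With an unadjusted p under 0.05 the count of markers was 3 in Grn-/-;GRNtg against Grn+/- (Gpr6, Adora2a and Rgs9), and 0 in both comparisons with wild type. The median log2 fold change of the markers kept its sign under the 4 alternatives of centring, removal of the trend with mean normalized count, weighting by 1/SE squared and the minimum count, at 0.14 to 0.17 in Grn-/-;GRNtg against Grn+/-, 0.0768 to 0.0834 in Grn-/-;GRNtg against wild type and -0.06 to -0.05 in Grn+/- against wild type. Centring could not change a sign, since the median over all genes was between 0.00 and 0.01 in each comparison. Weighting by 1/SE squared gave the most weight to the markers with the smallest SEs, which need not be the most precise. Dividing the statistics by their robust spread left 29, 5 and 3 called genes in the 3 comparisons in that order, against 82, 728 and 917 as deposited. Of the called genes named, Grn stayed called in the 3 comparisons, and Rgs7, C1ql2, Camk2a, Emx1 and Rorb did not, in a recomputation chosen after seeing the data. No paired analysis was possible because the tables hold no value per mouse, and for the same reason no mouse could be left out. Read depth per library is unknown. Intervals rest on the deposited SE, but fold changes may have been shrunk, so a small SE need not mean a precise value.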
